A study of Mus musculus with 32 samples.

Results

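The 33 genes described here encode the enzymes that build fatty acids and esterify them into triglyceride in mouse liver, together with 2 transcription factors that control them. They were chosen by function and found in the deposited count table by gene symbol, 33 of 54532 genes. All 33 passed the filter on low counts and were among the 17853 genes tested. By role, 10 of them supply precursors or make palmitate, 9 desaturate or elongate the chain, 2 are the transcription factors, and 12 activate fatty acids or act in esterification.

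Liver RNA from wild-type mice was sequenced in 32 libraries after 2 weeks on 1 of 2 diets, with collection every 6 h. The diet under study, cdHFD, was rich in fat, free of choline and poor in methionine, a combination used to induce steatohepatitis. The comparison diet was normal chow. Times are given as zeitgeber time (ZT), by convention counted in hours from lights on. The groups were cdHFD at ZT2, ZT8, ZT14 and ZT20 and chow at the same 4 times, with 4 libraries each. In cdHFD at ZT14 the libraries came from 3 males and 1 female, and the other groups had 2 of each sex. No group carried a transgene or a deletion, and the diets differ in fat, choline and methionine at once, so these components cannot be told apart. Age, strain and light schedule were not given in the sources used here.

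Liver makes fatty acids from carbohydrate carbon. Citrate leaves the mitochondrion and is split to acetyl-CoA, which is carboxylated to malonyl-CoA, and fatty acid synthase joins these units into palmitate. Palmitate is then elongated and desaturated, activated to acyl-CoA and esterified stepwise onto glycerol phosphate to give triglyceride. The pathway is controlled at the transcript level by SREBP-1c, the product of Srebf1, which responds to insulin, and by ChREBP, the product of Mlxipl, which responds to sugars. In liver its transcripts are known to follow the daily cycle of feeding.

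Library totals lay between 29512682 and 54572362 counts. Levels are counts-per-million (CPM) values after TMM scaling, which sets 1 factor per library. The factors averaged 1.22 ± 0.0831 in cdHFD and 0.821 ± 0.044 in chow (SD, n = 16 each), so scaling bears on the diet comparison. Without it, on total counts alone, the median log2 fold change of all genes tested was 0.54 in place of -0.018, and the share of genes called higher among those called was 88.3% in place of 49.9%. Among the members called, that share was 32% in place of 6.9%. The summed level of 10 hepatocyte markers ranged from 48100 to 82000 CPM in cdHFD livers and from 124000 to 200000 CPM in chow livers, and all 10 were lower in cdHFD. That of 10 macrophage markers ranged from 1100 to 1880 CPM in cdHFD livers and from 130 to 544 CPM in chow livers, and all 10 were higher. Of 10 stellate cell and fibroblast markers, 8 were higher (602 to 1780 CPM in cdHFD livers, 185 to 541 CPM in chow livers), and of 8 cholangiocyte markers 6 were higher and 1 lower (134 to 775 CPM in cdHFD livers, 70.1 to 249 CPM in chow livers). Of 10 endothelial markers 3 were higher and 4 lower, with summed levels of 170 to 324 CPM in cdHFD livers and 165 to 337 CPM in chow livers, and of 10 lymphocyte markers 3 were higher, with 8.06 to 21.4 CPM in cdHFD livers and 6.49 to 29.2 CPM in chow livers. Adipocyte and exocrine pancreas lists, with 4 and 2 of 10 markers past the filter, summed to 276 to 723 and 8.55 to 14.2 CPM in cdHFD livers, against 1250 to 4330 and 15.6 to 38.8 CPM in chow livers, and 2 of the pancreas markers were at 0 in all libraries. The adipocyte sum was mostly Car3, which averaged 428 CPM in cdHFD livers and 2730 CPM in chow livers. Adipoq, Plin1, Cidea, Lep, Retn and Adig did not pass the filter, and of the 4 tested 3 were lower and 1, Tusc5, was higher. The pancreas sum was mostly Cela1, at 10.8 CPM in cdHFD livers and 23.6 CPM in chow livers. The part of these shifts in the diet effects below was not tested, and in bulk liver fewer hepatocytes and less RNA per hepatocyte cannot be told apart.

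Most transcripts of the pathway were lower on cdHFD. Averaged over the 4 times, 27 of the 33 members were lower in cdHFD livers and 2 were higher, at an adjusted p under 0.05 (edgeR, quasi-likelihood, p-values adjusted by Benjamini-Hochberg over all genes tested). Of all genes tested, 31.2% were called lower and 31% higher. The 2 members that rose were Scd2 and Agpat3, and the 4 that were not called were Fads2, Elovl1, Lpin2 and Mogat1. The median member had a log2 fold change of -0.85, against -0.018 for all genes tested and -1.2 for the 10 hepatocyte markers. Of the members that fell, 15 were at least 2-fold lower and 7 of these at least 4-fold lower. The shares of all genes at these folds were not counted, so the 2 counts are not set against a background. On total counts 17 members were called lower and 8 higher, and the median member stood at -0.29.

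**Figure D1:**
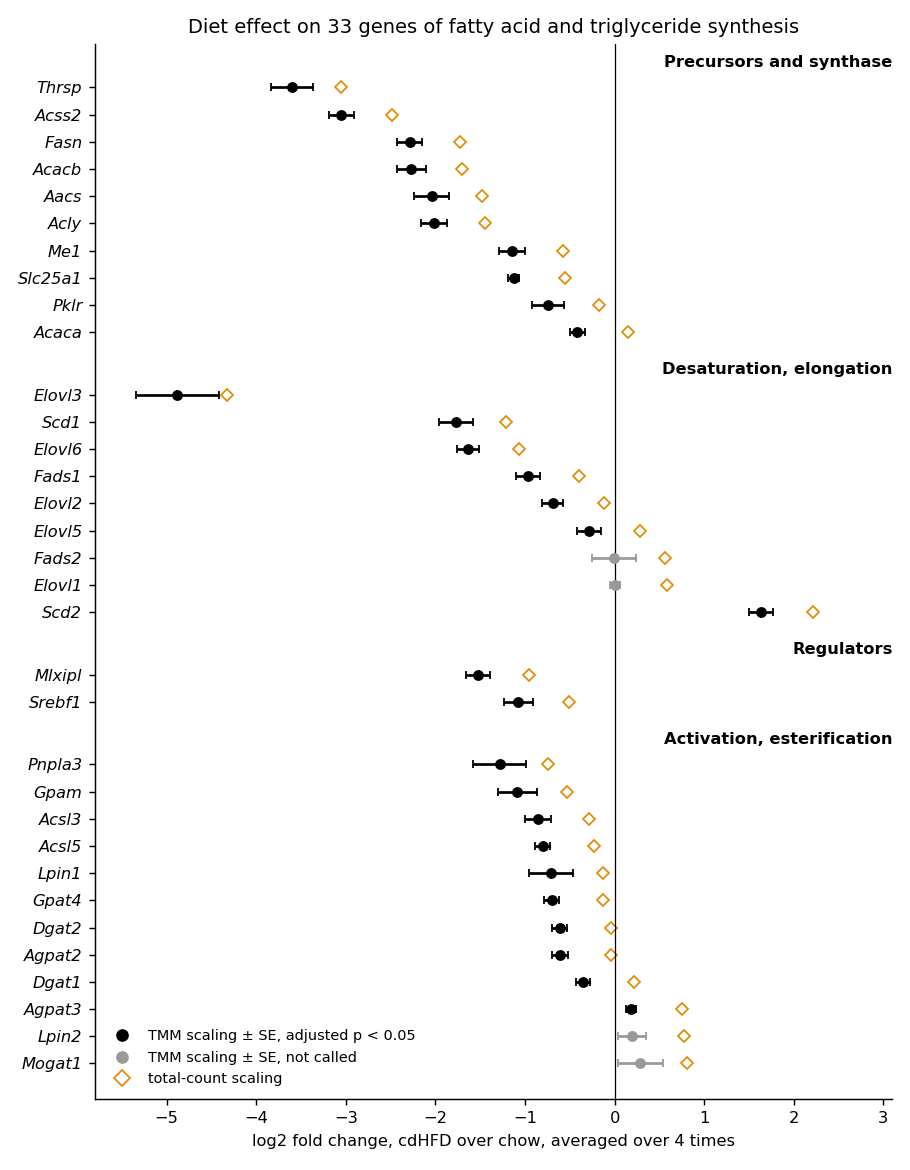
Log2 fold change of each member, cdHFD over chow, averaged over the 4 times and grouped by role, with the TMM-scaled estimate as a filled point ± SE (black where called, grey where not) and the estimate on total counts as an open diamond. On TMM scaling 27 members are called on the left of 0 and Scd2 and Agpat3 on the right, and every diamond lies to the right of its point, with Acaca, Fads2, Elovl5 and Dgat1 turning from below to above 0.

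In 6 members every cdHFD library lay below every chow library: Acly, Acss2, Acacb, Fasn, Slc25a1 and Mlxipl. In Scd2 every cdHFD library lay above every chow library. Over all genes tested, 2.68% were separated in the lower direction and 5.86% in the higher direction. No member was at 0 in any library, and the lowest counts were 5, in chow libraries, for Pnpla3 and Mogat1.

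On TMM scaling, transcripts for the supply of acetyl-CoA, its carboxylation and the synthase were all lower. All 10 members of the group of precursors and synthase were called lower, with a median log2 fold change of -2.03, and on total counts 8 were called lower and Acaca turned above 0. Slc25a1, the mitochondrial citrate carrier, ran at 114, 166 and 203 CPM in cdHFD livers (lowest, median, highest) and at 253, 361 and 458 CPM in chow livers. The ranges of its levels did not overlap, and its log2 fold change was -1.13 ± 0.0587 (SE, adjusted p = 4.75e-15). Acly, the ATP citrate lyase that splits the exported citrate, ran at 35.1, 54.4 and 76.5 CPM in cdHFD livers and at 103, 208 and 572 CPM in chow livers. The highest cdHFD library was below the lowest chow library, and the log2 fold change was -2.02 ± 0.145 (adjusted p = 1.23e-13).

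Acss2, the cytosolic enzyme that makes acetyl-CoA from acetate, had the largest drop among the members whose ranges were separate. Its levels were 18.3, 26.6 and 33.6 CPM in cdHFD livers and 92.3, 218 and 357 CPM in chow livers. They were separate by a wide margin, with a log2 fold change of -3.05 ± 0.139 (adjusted p = 1.6e-17). Aacs, which activates acetoacetate for lipid synthesis, ran at 9.81, 40 and 94.4 CPM in cdHFD livers and at 50.6, 132 and 260 CPM in chow livers. Its ranges overlapped between the diets, and its log2 fold change was -2.04 ± 0.195 (adjusted p = 7.83e-11).

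The carboxylase step was uneven between its isoenzymes. Acaca, the cytosolic acetyl-CoA carboxylase that feeds synthesis, ran at 47.4, 65.8 and 115 CPM in cdHFD livers and at 64, 88 and 134 CPM in chow livers. These ranges overlapped in most of their length, and the log2 fold change of -0.42 ± 0.0822 (adjusted p = 6.11e-05) turned to 0.15 on total counts (adjusted p = 0.0903). Acacb, the mitochondrial form whose malonyl-CoA restrains fatty acid oxidation, ran at 9.48, 15.1 and 24.6 CPM in cdHFD livers and at 27.9, 80.6 and 155 CPM in chow livers. No cdHFD library reached the lowest chow library, and the log2 fold change was -2.27 ± 0.165 (adjusted p = 2.38e-13). Within a library, a ratio that scaling does not touch, Acacb was 0.208 of Acaca at the median in cdHFD livers (range 0.148 to 0.52) and 0.819 in chow livers (range 0.322 to 1.66). That pair was picked after its values were seen and the ratio is given with no test.

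Fasn, fatty acid synthase itself, ran at 91.7, 188 and 457 CPM in cdHFD livers and at 516, 909 and 1710 CPM in chow livers. Every cdHFD library was below every chow library, and the log2 fold change was -2.29 ± 0.138 (adjusted p = 5.43e-15). Thrsp, or Spot 14, a small nuclear and cytosolic protein that goes with lipogenic tissue, ran at 9.28, 74.4 and 459 CPM in cdHFD livers and at 369, 647 and 1970 CPM in chow livers. Only 1 cdHFD library, at 459 CPM, reached into the chow range, and the averaged log2 fold change was -3.60 ± 0.236 (adjusted p = 4.26e-13). Me1, the malic enzyme that yields NADPH, and Pklr, the liver pyruvate kinase, fell less. Me1 ran at 52.7, 79.6 and 115 CPM in cdHFD livers and at 96.7, 152 and 382 CPM in chow livers, a log2 fold change of -1.15 ± 0.145 (adjusted p = 1.49e-08). Pklr ran at 58.2, 90.6 and 156 CPM in cdHFD livers and at 50, 160 and 358 CPM in chow livers, a log2 fold change of -0.74 ± 0.174 (adjusted p = 0.000268). Both overlapped between diets, and the Pklr call was lost on total counts (-0.18, adjusted p = 0.301).

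Desaturases and elongases did not all move in one direction. Of 9 members 6 were lower and 1 was higher, with a median log2 fold change of -0.69, and on total counts 4 were lower and 4 higher. Scd1, the main stearoyl-CoA desaturase of liver, was the member with the highest level per kilobase of exon in both diets, at 231 CPM per kb in cdHFD livers and 842 CPM per kb in chow livers. Its CPM were 548, 1110 and 1680 in cdHFD livers and 1580, 3740 and 11800 in chow livers. The ranges met at their ends, and its log2 fold change was -1.77 ± 0.191 (adjusted p = 9.4e-10). Scd2, the form that is prominent in brain and in newborn tissue, had 14.6, 22.2 and 25.5 CPM in cdHFD livers and 2.92, 7.02 and 11.8 CPM in chow livers. No cdHFD library was as low as the highest chow library, and its log2 fold change was 1.64 ± 0.132 (adjusted p = 1.2e-12).

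Scd1 (chr19:44394455-44407879, minus strand) and Scd2 (chr19:44293674-44306864, plus strand) lie 87.6 kb apart in GRCm38 and are close copies of each other. How reads shared between them were counted is not given in the sources used here, so both values are uncertain to that extent. Scd2 was 0.0206 of Scd1 at the median in cdHFD livers (0.0121 to 0.0401) and 0.00203 in chow livers (0.000311 to 0.00464), without overlap, again a ratio chosen after its values were seen. Scd2 thus remained a small part of the summed pair in both diets.

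Fads1, the delta-5 desaturase of polyunsaturated chains, ran at 181, 300 and 428 CPM in cdHFD livers and at 261, 591 and 811 CPM in chow livers. The groups overlapped, and its log2 fold change was -0.97 ± 0.131 (adjusted p = 6.21e-08). Its neighbour Fads2, the delta-6 desaturase, lies 81.1 kb away and ran at 87.5, 222 and 412 CPM in cdHFD livers and at 71.3, 218 and 628 CPM in chow livers. Fads2 did not pass the test, with a log2 fold change of -0.01 ± 0.246 (adjusted p = 0.986), and stood at 0.56 on total counts, where it was called higher (adjusted p = 0.0295).

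Elovl6, which elongates palmitate to stearate, was the most lowered elongase after Elovl3. It had 22.5, 32.7 and 87.4 CPM in cdHFD livers and 84.4, 110 and 180 CPM in chow livers. Only the top of the cdHFD range touched the bottom of the chow range, and its log2 fold change was -1.64 ± 0.118 (adjusted p = 2.28e-13). Elovl2, which lengthens polyunsaturated chains, ran at 193, 271 and 335 CPM in cdHFD livers and at 206, 452 and 784 CPM in chow livers. The groups overlapped, with a log2 fold change of -0.69 ± 0.118 (adjusted p = 2.94e-06) that was no longer called on total counts (-0.12, adjusted p = 0.334). Elovl5, another elongase of polyunsaturated chains, had 189, 334 and 561 CPM in cdHFD livers and 166, 402 and 734 CPM in chow livers. The cdHFD range lay inside the chow range, and its log2 fold change of -0.28 ± 0.133 (adjusted p = 0.0425) turned to 0.29 on total counts (adjusted p = 0.0361) and lost its call in 16 of the 32 fits that left out 1 library. Elovl1, an elongase of saturated very long chains, ran at 58.2, 71.1 and 84 CPM in cdHFD livers and at 45.9, 67 and 116 CPM in chow livers. Its averaged log2 fold change was 0.01 ± 0.0534 (adjusted p = 0.936), and the cdHFD range lay inside the chow range.

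Elovl3, an elongase that is known for higher levels in male mouse liver, had the largest averaged drop of all members. Its levels were 0.183, 1.23 and 27.3 CPM in cdHFD livers and 1.31, 25.4 and 1220 CPM in chow livers. The groups overlapped only because the sexes were pooled, since within each sex every cdHFD library lay below every chow library. The log2 fold change was -4.88 ± 0.459 (adjusted p = 3.77e-09), and the lowest count behind it was 8 in a cdHFD library.

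**Figure D2:**
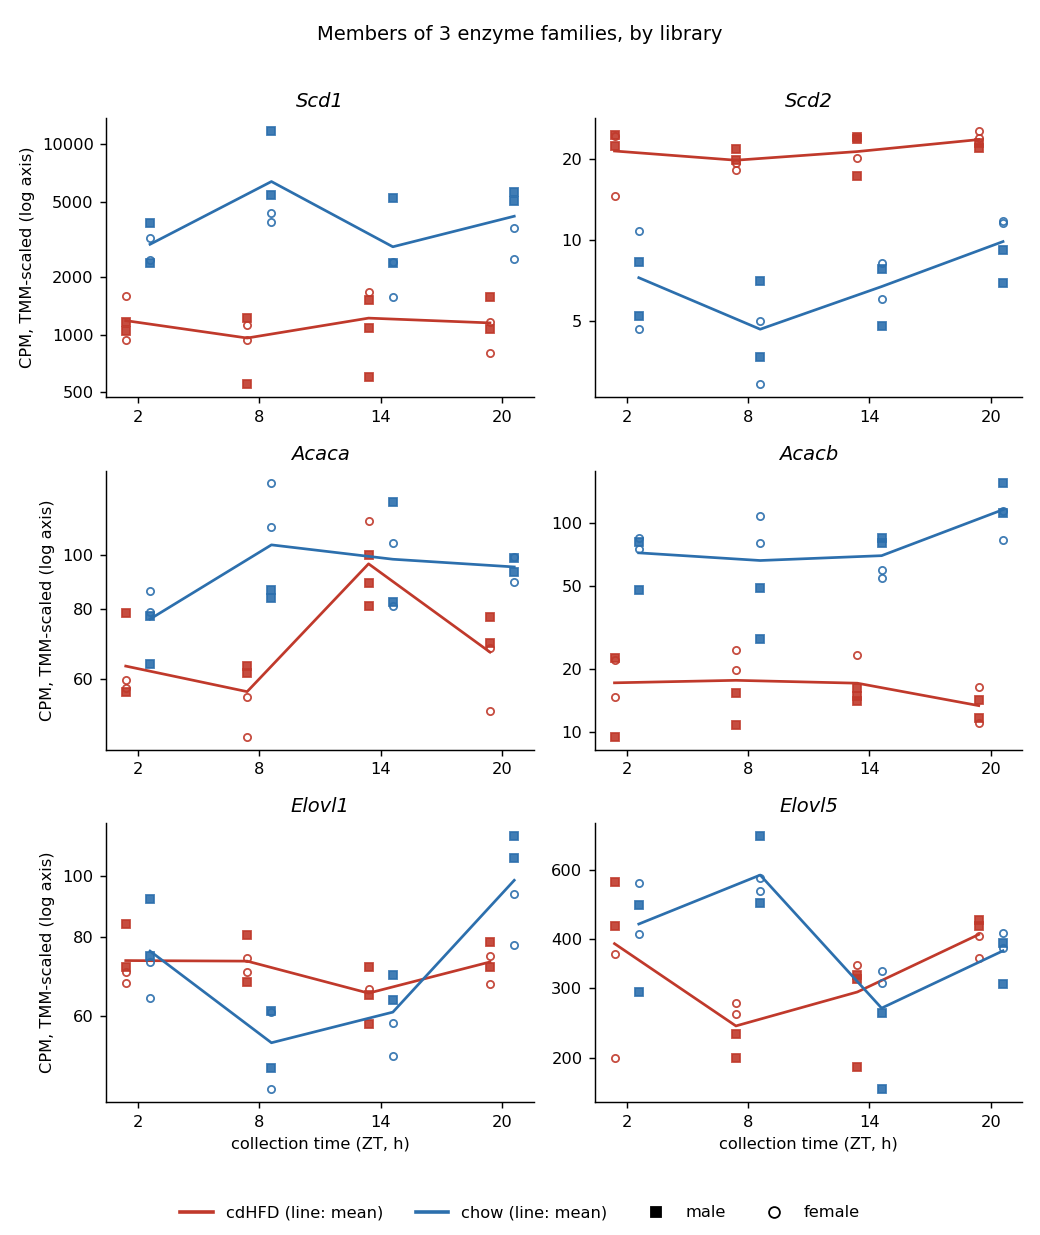
TMM-scaled CPM of the members of 3 enzyme families against collection time, log axes, each point 1 library (squares males, open circles females) and lines the mean of 4 libraries in cdHFD (red) and chow (blue). Scd1 and Acacb are lower in cdHFD at all 4 times and Scd2 is higher, while the lines of Elovl1 and Elovl5 cross between the diets on this scaling. Elovl5 is called at ZT8 alone on this scaling, and on total counts Elovl1 is higher in cdHFD at all 4 times.

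Both transcription factors fell, also on total counts. Srebf1, which encodes the SREBP-1 proteins, ran at 86.1, 174 and 420 CPM in cdHFD livers and at 266, 402 and 603 CPM in chow livers. The groups overlapped, and its log2 fold change was -1.08 ± 0.16 (adjusted p = 2.07e-07). Gene counts do not separate the 1a and 1c forms that Srebf1 yields from its alternative first exons. Mlxipl, which encodes ChREBP, had 148, 186 and 348 CPM in cdHFD livers and 351, 584 and 1150 CPM in chow livers. No cdHFD library reached the chow range, and its log2 fold change was -1.53 ± 0.133 (adjusted p = 1.11e-11).

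Most esterification members fell, by less at the median than the synthesis members. Of 12 members 9 were lower and 1 was higher, with a median log2 fold change of -0.66, while on total counts 3 were lower and 4 higher. Acsl5 and Acsl3, which activate long-chain fatty acids to acyl-CoA, were both lower. Acsl5 ran at 146, 188 and 255 CPM in cdHFD livers and at 197, 336 and 420 CPM in chow livers, a log2 fold change of -0.81 ± 0.0832 (adjusted p = 1.18e-09). Acsl3 ran at 14.3, 18.5 and 34.3 CPM in cdHFD livers and at 20.2, 36.6 and 57.3 CPM in chow livers, a log2 fold change of -0.85 ± 0.143 (adjusted p = 1.79e-06). Both overlapped between the diets, and Acsl3 missed the threshold on total counts (adjusted p = 0.053).

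Gpam and Gpat4 encode the mitochondrial and the endoplasmic reticulum enzyme that add the first acyl chain to glycerol phosphate. Gpam ran at 3.23, 6.68 and 14.1 CPM in cdHFD livers and at 4.37, 12 and 43.4 CPM in chow livers, a log2 fold change of -1.09 ± 0.219 (adjusted p = 3.66e-05). Gpat4 ran at 59.1, 92 and 137 CPM in cdHFD livers and at 115, 146 and 245 CPM in chow livers, a log2 fold change of -0.70 ± 0.0854 (adjusted p = 2.76e-08). The medians of both were lower in cdHFD and the ranges overlapped, and the Gpat4 call was lost on total counts (-0.13, adjusted p = 0.13).

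The acyltransferases of the second step went opposite ways. Agpat2, the form tied to triglyceride synthesis, ran at 127, 204 and 273 CPM in cdHFD livers and at 159, 321 and 476 CPM in chow livers, a log2 fold change of -0.61 ± 0.0913 (adjusted p = 7.92e-07). On total counts it was near 0 (-0.04, adjusted p = 0.607). Agpat3, a lysophospholipid acyltransferase, ran at 219, 275 and 351 CPM in cdHFD livers and at 200, 236 and 312 CPM in chow livers. The overlap was large and the rise small, a log2 fold change of 0.18 ± 0.0554 (adjusted p = 0.0162), which was 0.75 on total counts.

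Lpin1 and Lpin2 encode phosphatidate phosphatases, which form diacylglycerol. Lpin1 ranged from 6.12 to 151 CPM in cdHFD livers with a median of 45 CPM, and from 11.1 to 328 CPM in chow livers with a median of 62.7 CPM. The ranges overlapped, with the highest chow libraries above all cdHFD libraries and the lowest cdHFD libraries below all chow libraries, and its averaged log2 fold change of -0.71 ± 0.246 (adjusted p = 0.00663) averages opposite effects at different times. Lpin2 ran at 72.6, 224 and 363 CPM in cdHFD livers and at 66.5, 166 and 309 CPM in chow livers, and was not called (0.19 ± 0.158, adjusted p = 0.236).

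Dgat1 and Dgat2 encode the unrelated enzymes of the last step, from diacylglycerol to triglyceride. Dgat2 ran at 294, 439 and 571 CPM in cdHFD livers and at 410, 658 and 1040 CPM in chow livers, a log2 fold change of -0.61 ± 0.0856 (adjusted p = 3.94e-07). Dgat1 ran at 23, 28.2 and 34.3 CPM in cdHFD livers and at 24.3, 33.8 and 51.2 CPM in chow livers, a log2 fold change of -0.35 ± 0.0777 (adjusted p = 0.000248). Both overlapped between the diets, Dgat1 turned to 0.22 on total counts (adjusted p = 0.00909), and Dgat2 was near 0 there (-0.05, adjusted p = 0.577). Per kilobase of exon, Dgat2 had 139 CPM in cdHFD livers and 219 CPM in chow livers, while Dgat1 had 9.13 CPM in cdHFD livers and 11.6 CPM in chow livers.

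Mogat1 and Pnpla3 were the members with the lowest levels. Mogat1, a monoacylglycerol acyltransferase, ran at 0.284, 0.728 and 1.41 CPM in cdHFD livers and at 0.168, 0.531 and 1.53 CPM in chow livers, and was not called (0.29 ± 0.251, adjusted p = 0.301). Pnpla3, a lipid droplet protein best known for a human variant tied to fatty liver, ran at 0.266, 0.778 and 3.22 CPM in cdHFD livers and at 0.166, 1.74 and 8.68 CPM in chow livers. Its cdHFD range lay inside the chow range, and its log2 fold change was -1.29 ± 0.292 (adjusted p = 0.000204).

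Further genes of the pathway were counted from lists that are not among the members. Their counts stand beside 31.2% of all genes tested called lower and 31% called higher. Of 22 other regulators 13 were lower and 2 higher, with a median log2 fold change of -0.27. Insig1, the sterol-regulated retention protein of SREBP, averaged 46.7 CPM in cdHFD livers and 471 CPM in chow livers (-3.37 ± 0.14, adjusted p = 2.33e-18), while Pparg, a lipogenic nuclear receptor, averaged 16.7 CPM in cdHFD livers and 8.92 CPM in chow livers (0.94 ± 0.163, adjusted p = 3.02e-06). Of 17 genes of glucose entry and NADPH supply 9 were lower and 2 higher, with a median of -0.26. The 2 that rose were G6pdx (1.31 ± 0.119, adjusted p = 2.45e-11) and Pgd (0.78 ± 0.0755, adjusted p = 4.7e-10), the NADPH-forming steps of the pentose phosphate pathway, against the fall of Me1.

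Of 13 further chain enzymes that passed the filter, from a list of 16, 8 were lower and 2 higher, with a median of -0.26. Elovl7, an elongase, averaged 9.64 CPM in cdHFD livers and 0.434 CPM in chow livers (4.47 ± 0.242, adjusted p = 5.36e-17), the opposite direction to Elovl6. Of 19 further genes of activation and esterification, from a list of 20, 9 were lower and 7 higher, with a median of -0.20. Of all genes tested, 31.2% were called lower and 31% higher, so the 7 higher of 19 are near the share of all genes. Gpat3, a glycerol phosphate acyltransferase, averaged 31 CPM in cdHFD livers and 7.73 CPM in chow livers (2.06 ± 0.143, adjusted p = 4.34e-14), the opposite direction to Gpam and Gpat4. Macrophage marker sums rose in the same livers, as given above, and their part in the higher genes was not tested.

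At single times, on TMM scaling and with both sexes, the members called lower were most numerous at ZT20. The members called lower numbered 17 at ZT2, 23 at ZT8, 20 at ZT14 and 26 at ZT20, where 20.7%, 19.4%, 15.7% and 19.3% of all genes tested were called lower. The members called higher numbered 4, 2, 1 and 1 at these times, against 21%, 20.6%, 19.8% and 19.8% of all genes. Scd2 was higher at each time. The others were Agpat3, Lpin1 and Lpin2 at ZT2 and Elovl1 at ZT8. At all 4 times 13 members were called lower, and the share of all genes lower at all 4 times was not counted. The Agpat3 call at ZT2 (adjusted p = 0.0468) was lost in 18 of the 32 fits that left out 1 library. The 4 at ZT2 became 2 without chow replicate 2, chow replicate 3 or cdHFD replicate 2 of that time, and the 1 at ZT14 became 2 without cdHFD replicate 1. On total counts the members lower were 15 at ZT8, 10 at ZT14 and 15 at ZT20, and those higher were 4, 7 and 5. There ZT20 did not exceed ZT8 in members called lower. The total-count values for ZT2, and the shares of all genes at single times on that scaling, are not given here. In females alone, with 1 cdHFD library at ZT14, 4 were lower and 2 higher there, and in males alone 16 were lower at ZT20.

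The diet effect differed between times in 7 members, Aacs, Fasn, Thrsp, Elovl1, Elovl5, Lpin1 and Lpin2, by the test that it is equal at all 4 times. Of all genes tested, 5.77% passed it. The count was 11 by DESeq2, 20 without the filter on low counts and 1 in males alone. For the group of precursors and synthase the median log2 fold change of its 10 members was -1.77 at ZT2, -1.65 at ZT8, -1.55 at ZT14 and -2.97 at ZT20.

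Thrsp had the largest fitted 24 h amplitude among the members in cdHFD. In cdHFD livers it had 21.2, 9.28, 20.2 and 65.5 CPM at ZT2, 83.2, 262, 206 and 172 CPM at ZT8, 149, 217, 138 and 459 CPM at ZT14, and 27.4, 18.2, 13.3 and 18.5 CPM at ZT20. In chow livers it had 451, 529, 547 and 369 CPM at ZT2, 496, 489, 723 and 507 CPM at ZT8, 1930, 1610, 1490 and 1180 CPM at ZT14, and 1410, 1970, 571 and 1130 CPM at ZT20. In cdHFD the libraries at ZT8 and ZT14 were high and those at ZT20 low, while in chow those at ZT20 were still high, and the diets did not overlap at any time. The log2 fold changes were -4.06 ± 0.472 at ZT2, -1.61 ± 0.472 at ZT8, -2.69 ± 0.475 at ZT14 and -6.05 ± 0.472 at ZT20, and they differed between times (adjusted p = 0.000892).

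Fasn, like Thrsp, had its largest diet effect at ZT20. In cdHFD livers it had 169, 91.7, 95.3 and 126 CPM at ZT2, 152, 300, 228 and 219 CPM at ZT8, 258, 324, 258 and 457 CPM at ZT14, and 206, 169, 118 and 146 CPM at ZT20. In chow livers it had 738, 918, 1080 and 896 CPM at ZT2, 588, 516, 1100 and 718 CPM at ZT8, 1160, 900, 652 and 832 CPM at ZT14, and 1200, 1620, 928 and 1710 CPM at ZT20. The cdHFD libraries were highest at ZT14 and those of chow at ZT20, again with no overlap between diets. Its log2 fold changes were -2.91 ± 0.276 at ZT2, -1.70 ± 0.276 at ZT8, -1.45 ± 0.278 at ZT14 and -3.09 ± 0.276 at ZT20 (adjusted p for a difference between times = 0.00644).

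Aacs in cdHFD livers had 18.3, 14.2, 23.5 and 37.4 CPM at ZT2, 52.6, 94.4, 42.6 and 51.4 CPM at ZT8, 45.8, 42.7, 51.3 and 60 CPM at ZT14, and 18.9, 17, 9.81 and 14.2 CPM at ZT20. In chow livers it had 72.8, 69.8, 93.1 and 85.9 CPM at ZT2, 153, 50.6, 160 and 128 CPM at ZT8, 213, 260, 64 and 124 CPM at ZT14, and 206, 204, 137 and 194 CPM at ZT20. Its lowest time on cdHFD, ZT20, was the time of its highest mean on chow, and the diets overlapped at ZT8 and did not at the other times. The log2 fold change was -1.05 ± 0.39 at ZT8 and -3.63 ± 0.39 at ZT20 (adjusted p for a difference between times = 0.00855).

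**Figure D3:**
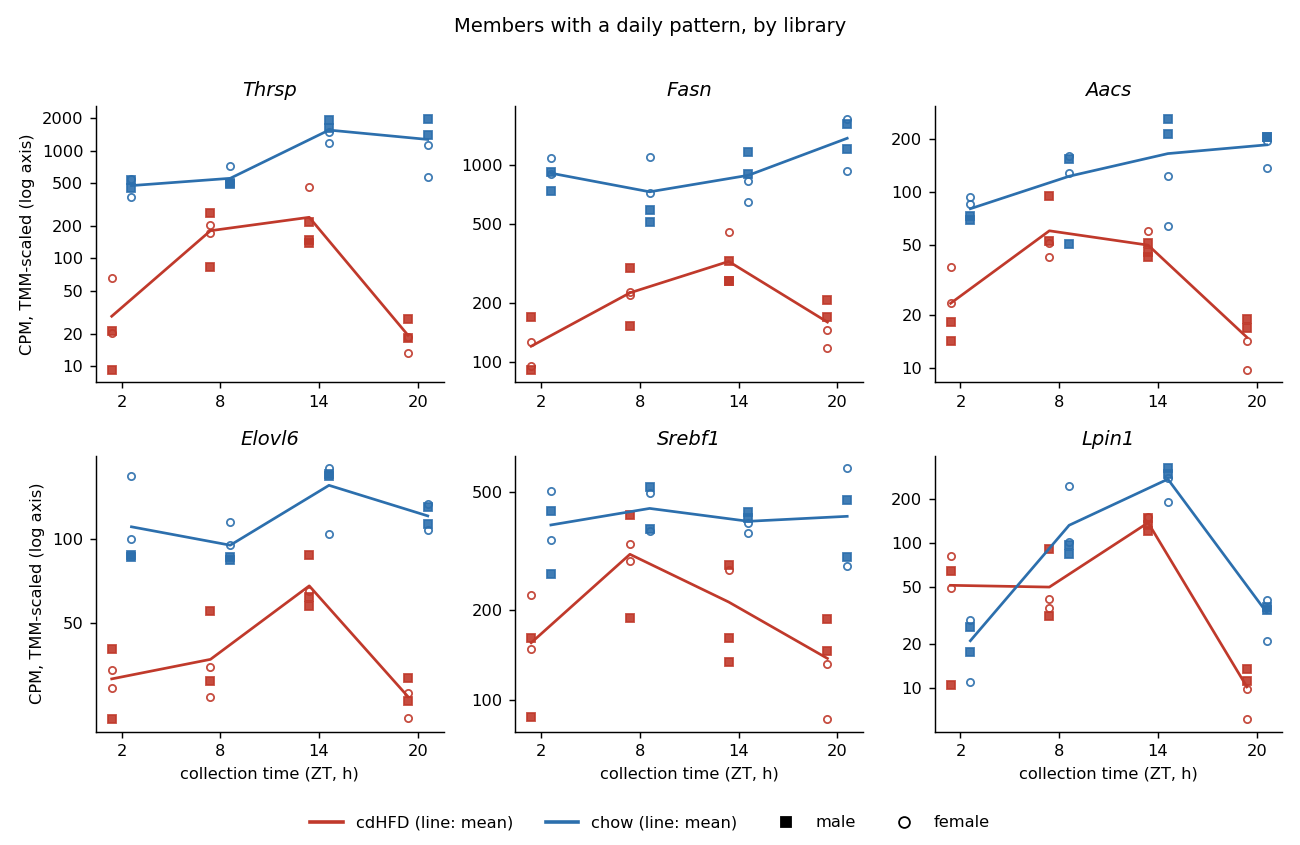
TMM-scaled CPM of 6 members against collection time, log axes, each point 1 library (squares males, open circles females) and lines the mean of 4 libraries in cdHFD (red) and chow (blue). In cdHFD Thrsp, Fasn, Aacs and Elovl6 peak at ZT8 or ZT14 and are low at ZT20, where the distance to chow is widest, and Lpin1 crosses between the diets at ZT2.

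Lpin1 was called higher in cdHFD at ZT2 and lower at ZT8 and ZT20. In cdHFD livers it had 10.5, 63.9, 49 and 81.1 CPM at ZT2, 91.2, 31.3, 40.9 and 35.5 CPM at ZT8, 133, 121, 148 and 151 CPM at ZT14, and 11.2, 13.6, 9.84 and 6.12 CPM at ZT20. In chow livers it had 26.3, 17.8, 11.1 and 29.6 CPM at ZT2, 96.9, 84.7, 247 and 102 CPM at ZT8, 328, 300, 283 and 193 CPM at ZT14, and 36.4, 34.7, 40.7 and 21.2 CPM at ZT20. At ZT2 3 of 4 cdHFD libraries lay above all chow libraries and 1 below them, and at ZT14 and ZT20 all cdHFD libraries lay below. The log2 fold changes were 1.27 ± 0.49 at ZT2 (adjusted p = 0.0238), -1.42 ± 0.49 at ZT8 (adjusted p = 0.0125), -0.998 ± 0.494 at ZT14 (adjusted p = 0.0794) and -1.70 ± 0.49 at ZT20 (adjusted p = 0.00362). They differed between times (adjusted p = 0.0137), and the effect at ZT8 was not called on total counts (-0.76, adjusted p = 0.15). The call at ZT2 was lost without chow ZT2 replicate 2 (adjusted p = 0.0675) or 3 (0.0857) and without cdHFD ZT2 replicate 2 (0.0717) or 4 (0.0972), and the log2 fold change stayed above 0 in each. The call at ZT8 was lost without chow ZT8 replicate 3 (-0.92, adjusted p = 0.091). Lpin2 moved the same way at ZT2, with means of 248 ± 95.5 CPM in cdHFD livers and 113 ± 32.7 CPM in chow livers (SD, n = 4 each) and a log2 fold change of 1.17 ± 0.315 (adjusted p = 0.00164). Its test of a difference between times passed (adjusted p = 0.0354), and the call was lost in 11 of 32 fits that left out 1 library.

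Elovl1 also crossed on TMM scaling, and Elovl5 was lower at ZT8 and near 0 at the other times. Elovl1 in cdHFD livers had 68, 80.8, 70.4 and 74.2 CPM at ZT8 and 71.7, 78.6, 67.5 and 74.7 CPM at ZT20, and in chow livers it had 49.7, 61.1, 61 and 45.9 CPM at ZT8 and 107, 116, 77.7 and 93.6 CPM at ZT20. The cdHFD libraries stayed level, above all chow libraries at ZT8 and mostly below them at ZT20, with log2 fold changes of 0.43 ± 0.107 (adjusted p = 0.00471) and -0.42 ± 0.107 (adjusted p = 0.00536). On total counts its log2 fold change at ZT20 turned to 0.17 and that at ZT8 was 1.05. Elovl5 at ZT8 had 230, 199, 276 and 258 CPM in cdHFD livers and 734, 495, 530 and 573 CPM in chow livers, without overlap (-1.28 ± 0.265, adjusted p = 9.92e-05). At the other times it was not called, with log2 fold changes of -0.15 ± 0.265 at ZT2, 0.16 ± 0.267 at ZT14 and 0.14 ± 0.265 at ZT20. On total counts Elovl5 stayed lower at ZT8 (-0.66, adjusted p = 0.0226) and was not called at ZT2 (0.38, adjusted p = 0.198). There it was called higher at ZT14 (0.71, adjusted p = 0.0185) and ZT20 (0.73, adjusted p = 0.0136).

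Elovl3 was lower in cdHFD at each time. Its log2 fold changes were -6.60 ± 0.915 at ZT2, -5.03 ± 0.915 at ZT8, -3.62 ± 0.923 at ZT14 and -4.27 ± 0.915 at ZT20, all called with sex in the model. At ZT14 it was -3.50 in males alone (adjusted p = 0.00347) and -2.48 in females alone, where cdHFD had 1 library. Without the sex term the calls at ZT14 (-2.94, adjusted p = 0.236) and ZT20 (-4.72, adjusted p = 0.063) were lost. A difference between times was not called (adjusted p = 0.367).

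A 24 h cosine was fitted within each diet. It was called in 5 members in cdHFD, Aacs, Fasn, Thrsp, Elovl6 and Srebf1, and in 12 members in chow, Fasn, Thrsp, Scd2, Elovl1, Elovl3, Elovl5, Mlxipl, Agpat2, Lpin1, Lpin2, Dgat2 and Pnpla3. Of all genes tested, 2.47% were called in cdHFD and 17.7% in chow. Only Fasn and Thrsp were called in both diets, 3 members in cdHFD alone, 10 in chow alone and 18 in neither. A call in 1 diet alone does not show a difference, and the pattern itself differed between diets in 5 members: Aacs (adjusted p = 0.00803), Fasn (0.00462), Thrsp (0.000557), Elovl1 (0.01) and Elovl5 (0.0489). Of all genes tested, 3.64% differed. The Elovl5 call was lost in 24 of the 32 fits that left out 1 library, and without chow ZT14 replicate 2 the count was 8. In females alone the cosine was called in 0 members in cdHFD and 2 in chow and differed in 0, and in males alone in 2 and 7 and differed in 1. Without the filter on low counts it was called in 11 and 20 and differed in 14.

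By role, the calls in cdHFD fell on 3 of the 10 members of precursors and synthase, 1 of the 9 desaturases and elongases, 1 of the 2 transcription factors and 0 of the 12 esterification members (edgeR, with 2 of these at an unadjusted p under 0.05, and also 0 by DESeq2). In chow these counts were 2, 4, 1 and 5. Of all genes tested, the cosine was called in 2.47% in cdHFD and 17.7% in chow. The 0 of 12 in cdHFD and the 2 of 10 in chow are near these shares. A test of any difference between the 4 times, which does not assume a cosine, called 8 members in cdHFD and 21 in chow, against 5.43% and 32.1% of all genes tested. The 3 that it added in cdHFD were Acaca (adjusted p = 0.0142), Lpin1 (adjusted p = 0.00016) and Lpin2 (adjusted p = 0.014).

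The called peaks in cdHFD all fell between ZT9.52 and ZT12.8, and those in chow were spread from ZT1.81 to ZT22.9. Thrsp had an amplitude of 2.27 ± 0.23 (log2 CPM, ± SE) with its peak at ZT11.1 ± 0.39 h in cdHFD, and of 1.01 ± 0.23 with its peak at ZT16.2 ± 0.87 h in chow. The fitted peak was thus 5.1 ± 0.95 h earlier on cdHFD, less than the 6 h between collections. Thrsp had its highest mean at ZT14 in both diets, 241 CPM in cdHFD livers and 1550 CPM in chow livers. A shift of the peak alone was not tested. The fitted peak was 23.3 times the trough in cdHFD and 4.06 times in chow. Fasn had an amplitude of 0.759 ± 0.13 and a peak at ZT12.8 ± 0.67 h in cdHFD, and of 0.462 ± 0.13 and ZT20.2 ± 1.1 h in chow. Aacs had an amplitude of 1.14 ± 0.2 and a peak at ZT10 ± 0.66 h in cdHFD, and of 0.555 ± 0.2 and ZT16.6 ± 1.4 h in chow, where it was not called (adjusted p = 0.0669).

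Elovl6 and Srebf1 were called in cdHFD alone, with amplitudes of 0.592 and 0.63 there and of 0.313 and 0.0816 in chow, and neither passed the test of a difference (adjusted p = 0.252 and 0.192). Elovl1 was the opposite case, with an amplitude of 0.105 ± 0.056 in cdHFD and 0.455 ± 0.055 in chow, peaking at ZT21.4 ± 0.46 h in chow. Lpin1 had the largest amplitude in chow, 1.4 ± 0.35 in cdHFD (adjusted p = 0.155) and 2.11 ± 0.35 in chow (adjusted p = 0.000376). Its patterns did not pass the test of a difference by the cosine (adjusted p = 0.233). Over the 33 members the fitted amplitude was smaller in cdHFD in 25 and larger in 8, with medians of 0.206 in cdHFD and 0.437 in chow. Amplitudes over all genes were not summarized, so the 25 and 8 are not set against a background. The cosine was called in 2.47% of all genes in cdHFD and 17.7% in chow, so the lower share of calls in cdHFD was also seen over all genes.

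**Figure D4:**
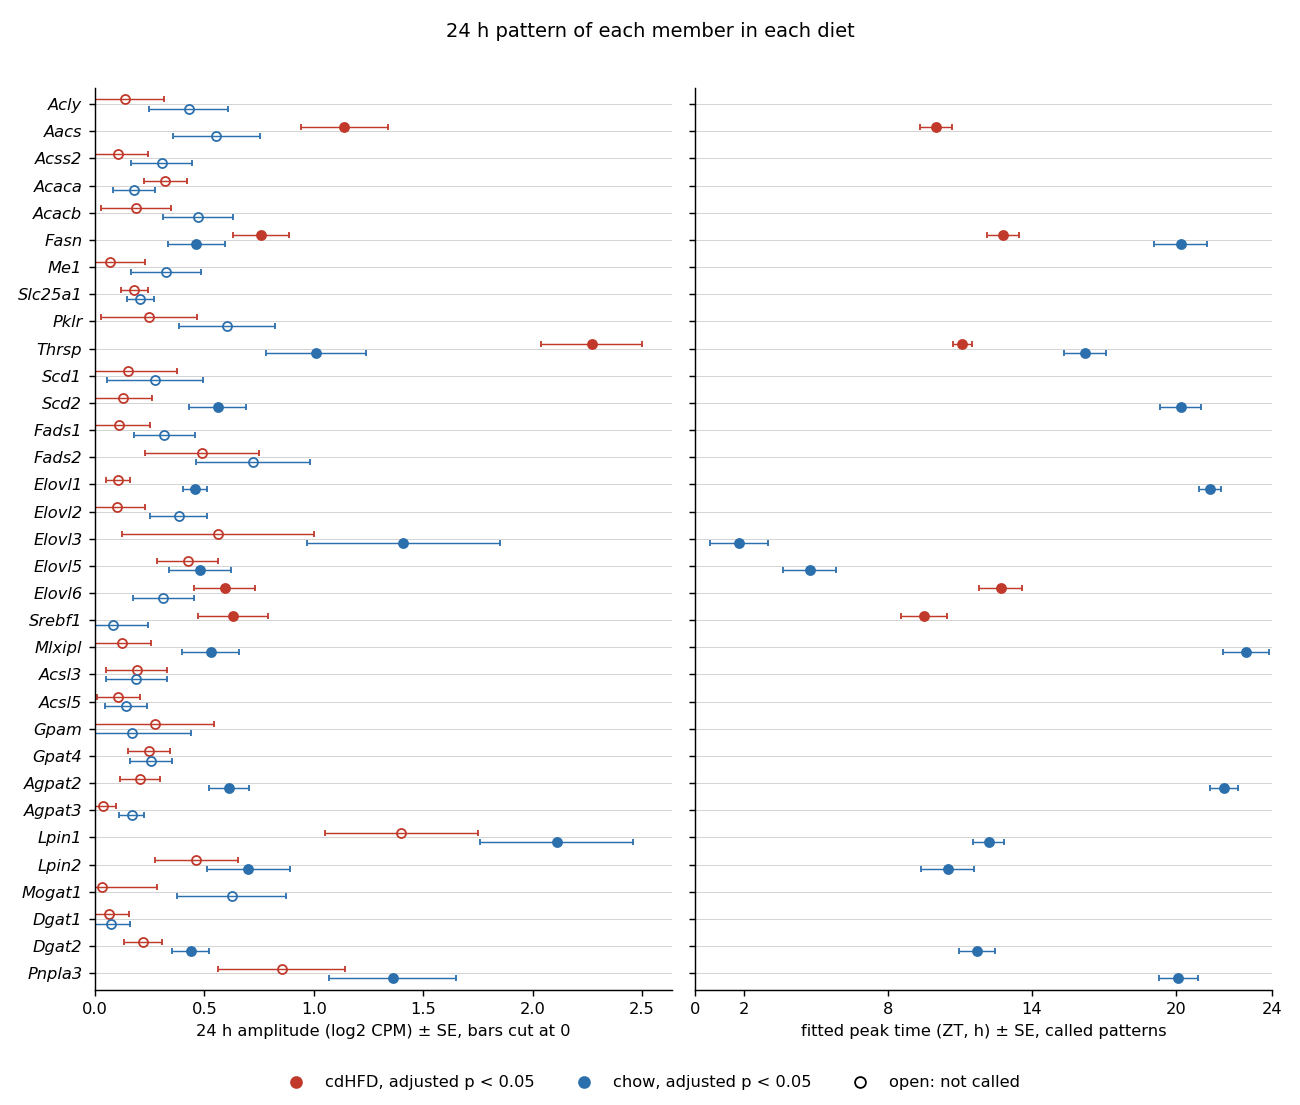
Fitted 24 h amplitude in log2 CPM (left, ± SE) and fitted peak time in ZT hours (right, ± SE, called patterns alone) of each member in cdHFD (red) and chow (blue), with open points where the pattern was not called. The called peaks in cdHFD lie between ZT9.52 and ZT12.8 and those in chow between ZT1.81 and ZT22.9, and Thrsp has the largest amplitude, 2.27 in cdHFD.

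Promoter sequence was set beside these patterns for the 5 members whose 24 h pattern differed between diets. The 250 bases before the start of the transcript are shown for each, from RefSeq on GRCm38.p6, 5′ to 3′ on the strand of the gene. Capitals mark the letters CCAAT or its complement ATTGG, the CCAAT box that is read by NF-Y, a partner of SREBP, and in Elovl5 also CACGTG, the E-box core read by ChREBP and by clock proteins. The windows are Fasn chr11:120824548-120824797 (minus strand), Thrsp chr7:97417551-97417800 (minus strand), Aacs chr5:125475623-125475872 (plus strand), Elovl1 chr4:118427843-118428092 (plus strand, the first of 2 starts) and Elovl5 chr9:77917115-77917364 (plus strand).
Fasn: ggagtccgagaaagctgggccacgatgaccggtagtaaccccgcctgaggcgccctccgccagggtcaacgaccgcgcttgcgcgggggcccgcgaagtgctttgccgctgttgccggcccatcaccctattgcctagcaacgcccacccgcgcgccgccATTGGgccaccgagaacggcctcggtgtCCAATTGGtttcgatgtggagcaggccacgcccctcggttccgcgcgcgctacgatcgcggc
Thrsp: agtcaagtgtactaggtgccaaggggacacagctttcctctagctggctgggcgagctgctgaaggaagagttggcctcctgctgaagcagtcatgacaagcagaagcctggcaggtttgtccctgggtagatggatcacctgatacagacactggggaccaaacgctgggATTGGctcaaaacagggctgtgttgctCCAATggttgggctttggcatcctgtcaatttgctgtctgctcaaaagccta
Aacs: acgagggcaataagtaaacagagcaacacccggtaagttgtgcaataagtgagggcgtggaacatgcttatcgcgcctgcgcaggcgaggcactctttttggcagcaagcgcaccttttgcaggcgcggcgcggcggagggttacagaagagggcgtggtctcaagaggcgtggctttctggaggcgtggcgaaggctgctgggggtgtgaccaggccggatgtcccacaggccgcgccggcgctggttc
Elovl1: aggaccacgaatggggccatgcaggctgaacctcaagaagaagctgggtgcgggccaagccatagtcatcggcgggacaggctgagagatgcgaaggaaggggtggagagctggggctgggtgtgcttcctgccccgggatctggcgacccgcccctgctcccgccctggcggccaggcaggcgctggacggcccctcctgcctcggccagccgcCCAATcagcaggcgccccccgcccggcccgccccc
Elovl5: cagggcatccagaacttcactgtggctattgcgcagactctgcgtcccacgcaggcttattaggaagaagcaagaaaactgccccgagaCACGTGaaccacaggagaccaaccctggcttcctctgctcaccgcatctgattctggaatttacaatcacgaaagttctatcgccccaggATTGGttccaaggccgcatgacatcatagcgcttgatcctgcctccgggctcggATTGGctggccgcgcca

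The Fasn window held 3 CCAAT boxes, 2 of which overlap in CCAATTGG, Thrsp held 2, Elovl5 2 and Elovl1 1, and Aacs held none. RefSeq windows were found for 26 members, 36 in all, and Dgat1, Scd1, Gpat4, Scd2, Elovl3, Fads1 and Dgat2 were not matched. The CCAAT box, on either strand, was in 17 of the 36 windows (47.2%), in 16 members, and in 33.8% of 32851 promoter windows of the same length. The E-box CACGTG was in 4 windows (11.1%), those of Elovl5, Lpin2, Mlxipl and Slc25a1, and in 6.02% of all windows. The sterol element TCACNCCAC, on either strand, was in 1 window, of Mlxipl, and in 1.05% of all windows, and the D-box TTATGTAA, on either strand, was in 0 member windows and in 0.819% of all windows. A match is a run of letters and no binding was measured here.

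Sex differences were tested within each diet. In cdHFD livers 1 member was lower in females and 0 were higher (edgeR, with 2 higher at an unadjusted p under 0.05, and also 0 by DESeq2). In chow livers 5 were lower in females and 1 was higher, and on total counts 3 and 3. Of all genes tested, 0.426% were lower and 0.515% higher in females on cdHFD, and 3.36% were lower and 6.12% higher in females on chow. The change of the sex difference with diet was called in 1 member, Mogat1, in the higher direction, against 1.05% of all genes lower and 0.807% higher. There were 7 females and 9 males on cdHFD and 8 of each on chow. On chow 9 of 10 macrophage markers were called higher in females, with a median log2 difference of 0.81, and 1 of 10 hepatocyte markers was, and their part in the sex differences was not tested.

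Elovl3 was the member called in both diets. On cdHFD it had 0.183, 0.272 and 0.73 CPM in females (lowest, median, highest) and 1.06, 4.1 and 27.3 CPM in males, a female minus male log2 difference of -3.60 ± 0.563 (adjusted p = 0.00252). On chow it had 1.31, 4.95 and 7.88 CPM in females and 43, 318 and 1220 CPM in males, a difference of -5.99 ± 0.545 (adjusted p = 1.17e-07). The sexes did not overlap in either diet.

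Pnpla3 was the member higher in females on chow, with 0.988, 4.46 and 8.68 CPM in females and 0.166, 0.878 and 3.46 CPM in males, a difference of 2.21 ± 0.35 (adjusted p = 4.09e-05). On cdHFD it had 0.478, 0.828 and 3.22 CPM in females and 0.266, 0.603 and 1.12 CPM in males, and was not called. Scd1 on chow had 1580, 2860 and 4380 CPM in females and 2370, 5120 and 11800 CPM in males (-0.73 ± 0.245, adjusted p = 0.0338). Both genes overlapped between the sexes.

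Me1, Gpat4 and Mogat1 were the other members lower in females on chow. Me1 had 103, 134 and 213 CPM in females and 96.7, 216 and 382 CPM in males (-0.58 ± 0.202, adjusted p = 0.0426), and Gpat4 had 115, 130 and 156 CPM in females and 123, 162 and 245 CPM in males (-0.39 ± 0.109, adjusted p = 0.0214). Mogat1 had 0.168, 0.4 and 1.22 CPM in females and 0.387, 0.71 and 1.53 CPM in males (-0.85 ± 0.26, adjusted p = 0.0481). On cdHFD the order of the Mogat1 medians was turned, with 0.581, 0.936 and 1.41 CPM in females and 0.284, 0.557 and 0.777 CPM in males, a difference that was not called. The Mogat1 ranges of the sexes overlapped in both diets. The change of the Mogat1 sex difference with diet was 1.65 ± 0.374 (adjusted p = 0.0149). Leaving out 1 library ended the call on chow in 23 of 32 fits for Mogat1, 13 for Me1, 8 for Scd1 and 3 for Gpat4, and without chow ZT14 replicate 1 the members lower in females on chow were 1.

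**Figure D5:**
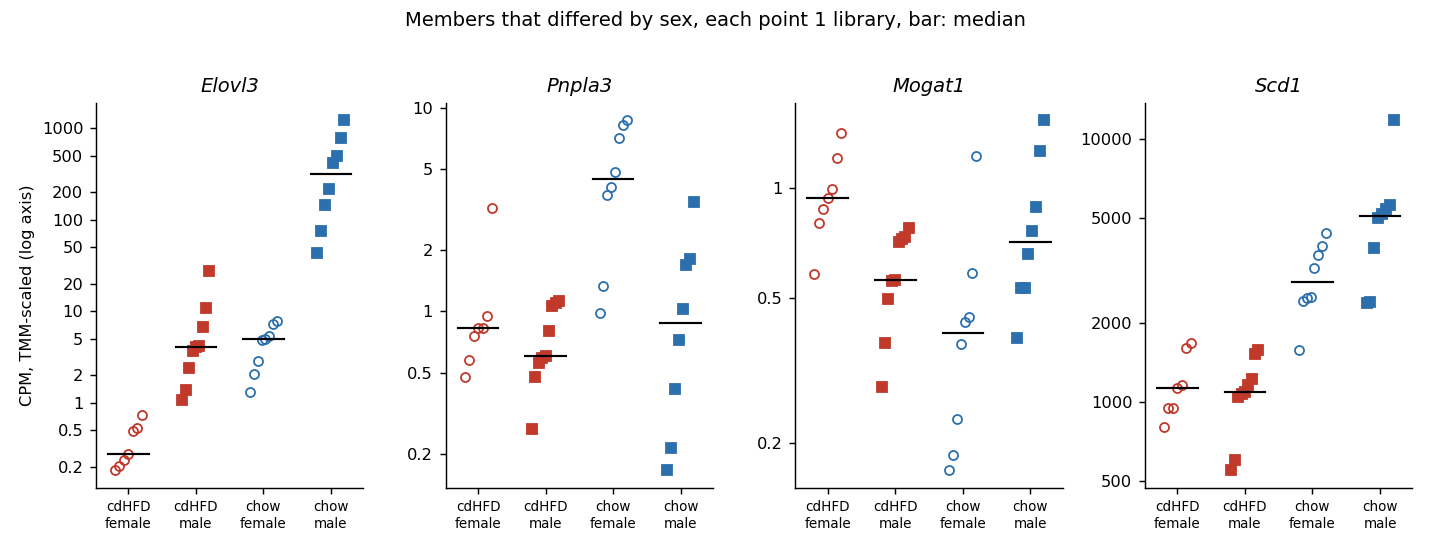
TMM-scaled CPM of 4 members by diet and sex, log axes, each point 1 library and each bar the median. Elovl3 is lower in females without overlap in both diets, and Pnpla3 is higher in females on chow, with a median of 4.46 CPM against 0.878 CPM in males. The Mogat1 medians turn their order between the diets, with overlap of the sexes in both and no sex difference called on cdHFD.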

How the data were processed

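The authors deposited a table of raw counts per gene for 32 polyadenylated RNA libraries, made from non-directional paired-end reads per the labels' protocols. HISAT2, featureCounts, DESeq2 and the builds GRCm38 and mm10 are named per the submitters' processing notes, and their versions and settings were not found in the sources used here. Without strand, reads of a gene and an overlapping antisense gene cannot be told apart.

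The 33 members and the other lists were chosen with earlier results of these data known. All 33 members are named, and other genes are named only from the lists. Groups came from the labels, which do not say that each library is a separate animal, so the p-values reflect differences among these samples, which may be technical. Counts were scaled by TMM and tested in R 4.3.3 with edgeR 4.0.16 (robust quasi-likelihood test, default filter on low counts, prior count 2), with Benjamini-Hochberg adjustment over the 17853 genes that passed and a threshold of 0.05. Of 3 models, 1 fitted the 8 groups with sex, 1 a 24 h cosine within each diet with sex, and 1 the groups with sex nested in diet. Standard errors, amplitudes and peaks came from linear models of log2 CPM with limma 3.58.1, so they are a different estimate from the test. With 4 times the 24 h period was set and not estimated. Alternatives were size factors by the median of ratios, total counts alone, no filter, DESeq2 1.42.0, each library left out, no sex term, the replicate number, and each sex alone. No pair of replicates within a group agreed within sampling noise, as the chi-square statistic was 20.7 to 357 times its degrees of freedom. Promoters were RefSeq windows on GRCm38.p6, and gene positions and exon lengths were from GENCODE on GRCm38. The scripts were tested on simulated data.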

Additional observations from a re-analysis of the deposited data

Results flagged for a closer look

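Single libraries stood apart from the other 3 of their group by a gap test in 15 of 264 combinations of member and group, in 11 libraries. Chance flags about 1 in 20 groups, and the members share libraries. In cdHFD these were Acaca at 78.6 CPM (ZT2 replicate 1), Elovl2 at 193 CPM and Mlxipl at 348 CPM (ZT2 replicate 4), Slc25a1 at 203 CPM (ZT8 replicate 2), Lpin1 at 91.2 CPM (ZT8 replicate 1) and Pnpla3 at 3.22 CPM (ZT14 replicate 4). Of these, Elovl2 was low and the others high. In chow, ZT14 replicate 1 was high for Acly at 265 CPM, Me1 at 326 CPM and Pklr at 358 CPM, and ZT8 replicate 3 was high for Thrsp at 723 CPM and Lpin1 at 247 CPM. Elovl6 was high at 169 CPM in chow ZT2 replicate 3 and low at 104 CPM in chow ZT14 replicate 3. Elovl2 was low at 275 CPM in chow ZT14 replicate 2, and Mogat1 was high at 1.53 CPM in chow ZT8 replicate 1.

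A diet effect that differed between the 4 times was called for Aacs (adjusted p = 0.00855), Fasn (0.00644), Thrsp (0.000892), Elovl1 (0.0129), Elovl5 (0.0192), Lpin1 (0.0137) and Lpin2 (0.0354). A 24 h pattern that differed between cdHFD and chow was called for Aacs (adjusted p = 0.00803), Fasn (0.00462), Thrsp (0.000557), Elovl1 (0.01) and Elovl5 (0.0489). A sex difference that differed between the diets was called for Mogat1 (adjusted p = 0.0149).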

How the results depend on the processing

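Size factors by the median of ratios kept the averaged counts at 27 members lower and 2 higher in cdHFD, and so did leaving out the sex term. On total counts alone they were 17 and 8, with 15 lower and 4 higher at ZT8, 10 and 7 at ZT14, and 15 and 5 at ZT20, and 3 members lower and 3 higher in females on chow. The counts at ZT2 on total counts are not given here. Total counts also turned signs, listed here where the log2 fold change was called on TMM scaling or on total counts. Averaged over the times these were Acaca (0.154), Fads2 (0.557), Elovl5 (0.287) and Dgat1 (0.219). At ZT2 they were Elovl1 (0.49) and Dgat1 (0.0415), and at ZT8 Agpat2 (0.44) and Agpat3 (0.544). At ZT14 they were Acaca (0.512), Acsl5 (0.0461) and Dgat1 (0.149). At ZT20 they were Acaca (0.0849), Elovl1 (0.17), Dgat1 (0.384) and Dgat2 (0.0373). Turns of values called on neither scaling, such as Elovl5 at ZT2 (0.376) and Srebf1 at ZT8 (0.083), are not all listed. The construction of this setting, without the factors that differ between the diets, moves all genes at once.

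In males alone 1 member was higher at ZT8, 16 were lower at ZT20, the diet effect differed between times in 1, and the cosine was called in 2 in cdHFD and 7 in chow and differed in 1. In females alone 1 member was higher at ZT8, 4 were lower and 2 higher at ZT14, and the cosine was called in 0 in cdHFD and 2 in chow and differed in 0. Without the filter the diet effect differed between times in 20 members, and the cosine was called in 11 in cdHFD and 20 in chow and differed in 14. There 3 members were higher in females on chow and 1 on cdHFD, and the sex difference changed in 4 in each direction. DESeq2 gave 11 members whose diet effect differed between times and 2 whose sex difference changed in the lower direction. The test of any difference between times gave 8 in cdHFD and 21 in chow. The cause of these moves was not tested.

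Leaving out 1 library gave 26 to 27 members lower and 2 to 2 higher on average, 15 to 18 and 2 to 5 at ZT2, 20 to 23 and 2 to 2 at ZT8, 17 to 22 and 1 to 2 at ZT14, and 24 to 26 and 1 to 1 at ZT20. The diet effect differed between times in 5 to 10, and the cosine was called in 4 to 6 in cdHFD and 10 to 15 in chow and differed in 4 to 8, with 8 without chow ZT14 replicate 2. Members higher at ZT2 were 2 without chow ZT2 replicate 2, chow ZT2 replicate 3 or cdHFD ZT2 replicate 2, and at ZT14 2 without cdHFD ZT14 replicate 1. Members lower in females on chow were 1 to 6, with 1 without chow ZT14 replicate 1, 3 without chow ZT14 replicate 4, and 2 without chow ZT8 replicate 1, 3 or 4, ZT14 replicate 3, or ZT20 replicate 2 or 3. Those higher were 1 to 2, with 2 without chow ZT8 replicate 1. On cdHFD 1 to 1 were lower and 0 to 0 higher in females, and the change with diet was lower in 0 to 1 (1 without chow ZT8 replicate 1, chow ZT14 replicate 3 or cdHFD ZT14 replicate 4) and higher in 1 to 1.

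The replicate numbers did not pair the libraries, since 1 of 16 pairs correlated above 0.1 (range -0.39 to 0.259) and 1 correlated best with its own number. The replicate number followed sex in all groups but cdHFD ZT14, where replicate 3 was male. A block by this number thus nearly holds the sex term, and its counts are no independent check. With the replicate number as a block in place of sex, 27 members were lower and 2 higher on average, 17 and 4 at ZT2, 23 and 2 at ZT8, 19 and 1 at ZT14, and 26 and 1 at ZT20. Under the block the effect differed between times in 7, and the cosine was called in 5 in cdHFD and 11 in chow and differed in 5. Elovl3 lost its call under the block at ZT14 (-0.56, adjusted p = 0.768) and its cosine in chow (adjusted p = 0.0776).

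Counts over all genes moved as well. At ZT2 7446 genes were called, and 3324 in females alone. At ZT8 the count was 7149, with 4497 in males and 4059 in females alone, at ZT14 it was 6351, with 1935 in females alone, and at ZT20 6972, with 3653 in males alone. A diet effect that differed between times was called in 1030 genes, with 2639 without the filter, 2166 by DESeq2, 62 in males and 157 in females alone. The cosine in cdHFD was called in 441 genes, with 1108 without the filter, 754 by DESeq2, 77 in males and 41 in females alone, and 970 for any difference between times. In chow it was called in 3164, with 398 in males and 794 in females alone, and 5732 for any difference. It differed between diets in 649, with 1809 without the filter, 1325 by DESeq2, 11 in males and 46 in females alone, and 1030 for any difference. The sex difference on cdHFD was called in 168, with 491 without the filter and 302 by DESeq2, and its change with diet in 331, with 798 and 614. Depth limits Pnpla3 and Mogat1 most, with counts down to 5.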

Other observations

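Within a library Elovl5 was 8.82 times Elovl6 at the median in cdHFD livers (3.05 to 19.3) and 3.42 times in chow livers (0.964 to 8.7), a pair chosen after its values were seen and given with no test. On chromosome 19, which holds 7 of the members, Gpam and Acsl5 lie 124.7 kb apart and both fell in cdHFD. On chromosome 1 Mogat1 and Acsl3 lie 119.7 kb apart, and Acsl3 fell while Mogat1 was not called.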
